A study of Mus musculus with 67 samples.

Results

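Single cells cultured from mouse aorta as vascular smooth muscle cells (VSMCs) were sequenced, and the cells described here are the passage 2 cells that held many fibroblast markers. For each cell, the number of 12 fibroblast marker genes with a deposited value of at least 10 normalised reads was counted. The markers were Pdgfra, Lum, Dcn, Dpt, Pi16, Ly6a, Cd34, Col14a1, Serpinf1, Clec3b, Fbln1 and Smoc2. Of 45 passage 2 cells, 29 had 3 or more markers (64.4%, exact Clopper-Pearson 95% interval 48.8% to 78.1%, which covers the counting of cells only), and 16 had fewer. The series held 67 cells in all. Because the 29 cells were chosen by these 12 genes, the 12 genes are described below and support nothing, and all other genes are given as descriptions of the same cells.

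The source tissue was descending aorta, the animals were male C57Bl6 adults 3 to 4 months old, and the cells were grown in DMEM with 10% fetal bovine serum and 1% penicillin and streptomycin. Passage 1 cells (22 cells) were taken after 5 undisturbed days in culture, and passage 2 cells (45 cells) after passage 1 cells had been trypsinised and replated. No agent, transgene or sorting marker is named in the labels, and each cell was captured on a microfluidic C1 system and became 1 library. The labels name no animal, litter or culture for any cell, so a passage counted as 1 sample. No p-value or standard error was computed for that reason, and each SD is the spread between cells. Cells are numbered within a passage in accession order, which carries no meaning beyond a name.

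The aortic wall has a media of smooth muscle cells, which contract through smooth muscle actin, myosin and their regulators, and an outer adventitia of fibroblasts. Fibroblasts make collagens, small leucine-rich proteoglycans such as decorin and lumican, and other matrix proteins, and many carry the receptor Pdgfra on their surface. Smooth muscle cells in culture are known to lose contractile gene expression and to gain matrix gene expression, so a fibroblast marker in a cultured aortic cell does not by itself name the cell's origin.

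The label of fibroblast markers held for only some of the 12 genes. In the 29 cells, Serpinf1 (pigment epithelium-derived factor) had a value of at least 10 in 27 cells, Col14a1 (a fibril-associated collagen) in 24, Pdgfra in 21, Dcn (decorin) in 20 and Smoc2 (a secreted calcium-binding matrix protein) in 17. Lum (lumican) followed with 10 cells and Dpt (dermatopontin) with 9. Ly6a (the surface antigen Sca-1, used as a marker of adventitial progenitor cells) was at 10 in 9 cells and reached 1370. Fbln1 was counted in 3 cells, Pi16 in 1, Cd34 in 1 and Clec3b, without a read in any of the 45 cells, in 0. In the 16 cells with fewer markers, Col14a1 was at 10 in 6 cells, Cd34 in 5, Serpinf1 in 3, Ly6a in 3, Dcn in 2, and Pdgfra, Lum, Fbln1 and Smoc2 in 1 each. Cd34 was thus the exception among the 12 genes, counted in 1 of 29 cells with 3 or more markers and in 5 of 16 cells with fewer. Cd34 is also a marker of endothelial cells. Of the 2 cells with an endothelial signature described below, cell 8 had a Cd34 value of 232 and cell 11 had 0. Cells 3, 16, 23 and 34 were the others of the 16 with Cd34 at 10.

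The summed value of the 12 markers was 303 at the lowest, 1710 at the median and 6442 at the highest in cells with 3 or more markers, and 7.36, 177 and 2195 in cells with fewer. Serpinf1 had the most even values, with a lowest of 0.481, a median of 654 and a highest of 1925 in the 29 cells, against 0, 1.14 and 1028 in the 16. Dcn had a lowest of 0, a median of 149.9 and a highest of 1772 in the 29 cells, against 0, 0.893 and 185 in the 16. Col14a1 and Serpinf1 were both at 10 in 22 of the 29 cells and Pdgfra and Serpinf1 in 21. Serpinf1 alone was at 10 in 27 of these cells, Col14a1 in 24 and Pdgfra in 21. The shared counts therefore follow largely from how common each marker was, in cells chosen by these markers. No cell had more than 8 of the 12 markers.

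**Figure D1:**
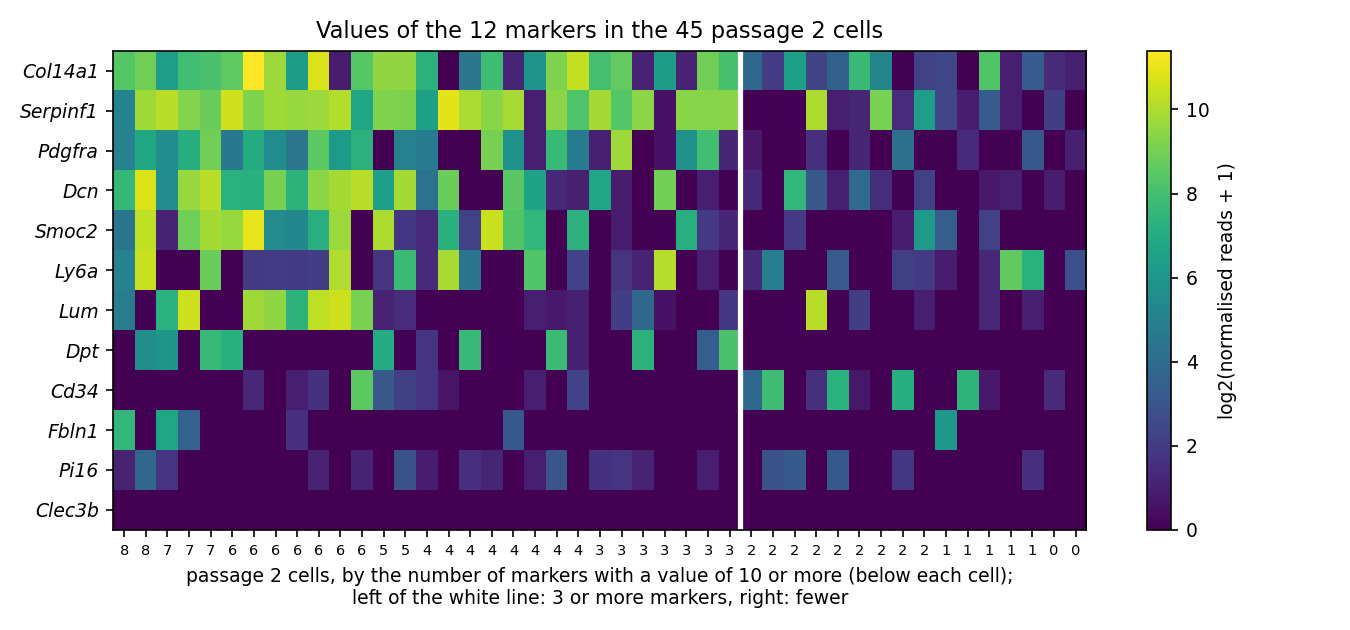
Values of the 12 markers in each of the 45 passage 2 cells, as log2 of normalised reads plus 1 (colour), with the number of markers at 10 or more below each cell. Cells with 3 or more markers stand left of the white line and cells with fewer right of it, Serpinf1 and Col14a1 fill most of the left side, and Clec3b is at 0 in all cells.

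Few marker values lay near 10, while many cells lay near the number of 3. Of 540 marker values in passage 2, 254 were at 0, 106 were above 0 and under 5, 15 lay from 5 to under 10, 9 from 10 to under 20, and 156 were at 20 or more. Even so, with a value of 5 in place of 10, 5 of the 16 cells would have had 3 markers and 34 of 45 cells would have been in the set, and with a value of 20, 1 of the 29 would have had fewer. The number of markers was spread over the cells, with 7 cells at 3 markers just inside the rule and 9 cells at 2 markers just outside it. Cells with 3 markers had a summed marker value of 856 to 1705 (median 1294), against 29.7 to 2195 (median 223) in cells with 2. Of the other members, 8 had 4 markers, 2 had 5, 7 had 6, 3 had 7 and 2 had 8. Below the rule, 5 cells had 1 marker and 2 had 0.

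A marker can be compared without its own part in the rule by counting only the other 11. Serpinf1 was then at 10 in 21 of 23 cells with 3 or more other markers and in 9 of 22 cells with fewer. Pdgfra was at 10 in 18 of 26 cells against 4 of 19, and Smoc2 in 16 of 28 against 2 of 17. Ly6a showed less of a gap, with 8 of 28 cells against 4 of 17, and Cd34 the opposite order, with 1 of 29 against 5 of 16.

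Depth overlapped between the sets. Cells with 3 or more markers had 584671 to 1509589 reads (median 867357) and 4163 to 8145 genes with a read (median 7074), and cells with fewer had 548419 to 1281192 reads (median 960804) and 6228 to 8731 genes (median 7504). After thinning every cell to 500000 reads the median numbers of genes were 6484 and 6926. Mitochondrially encoded genes took a median of 5.01% of reads in cells with 3 or more markers and 5.17% in cells with fewer. Across the 45 cells, the number of markers had a Spearman correlation of -0.23 with reads and -0.12 with genes after thinning, values that share the same libraries.

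The 29 cells also held reads of smooth muscle genes. Acta2 (smooth muscle actin) and Tagln (transgelin) were above 10 in all 29 cells and in all 16 others, cells with endothelial markers included, so the presence of these genes separated no cells. Lists of other cell types differed in how much was read. Of 12 macrophage markers, Ptprc, Adgre1, C1qa, C1qb, C1qc, Tyrobp, Fcer1g, Cd14 and Mrc1 had no read in any passage 2 cell, and no cell had 3 at 10. The macrophage sum was 0 to 295 in cells with 3 or more markers and 0 to 51.1 in cells with fewer, most of it Csf1r, which was at 10 in 5 and 2 cells. Of 10 mesothelial and epithelial markers, none was at 10 in the 29 cells. In the 16 cells with fewer markers, Krt18 was at 10 in 3 cells, Krt19 in 3 and Upk3b (a mesothelial uroplakin) in 2, and the sum of that list reached 94.7, against a highest sum of 6.94 in the 29 cells. Of 10 adipocyte markers, Adipoq, Plin1, Cidec and Lep had no read in any passage 2 cell, but the sum was 1.62 to 714 (median 179.6) in cells with 3 or more markers and 4.31 to 399 (median 93.1) in cells with fewer, and 28 of 29 and 13 of 16 cells had at least 1 marker at 10. Lpl (lipoprotein lipase) was at 10 in 26 and 12 cells and Fabp4, a fatty acid binding protein also made by endothelial cells, in 18 and 5. Fabp4 was past the fold upward (log2 ratio 1.65, or 2.62 without cell 33). Of 12 cartilage and bone markers, 3 or more were at 10 in 5 of 29 and 1 of 16 cells, with sums of 0 to 779 (median 48.8) and 0 to 602 (median 37.6), although Sp7, Bglap, Ibsp and Alpl had no read. Sox9 was at 10 in 10 and 7 cells and Runx2 in 8 and 3. The part of these lists in the results below was not tested.

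Cells 8 and 11, both with 2 markers, carried an endothelial signature. They had 10 and 9 of 12 endothelial markers at 10, and endothelial sums of 7344 and 6771, against 0 to 295 (median 36.1) in the 29 cells. At least 1 endothelial marker was at 10 in 20 of the 29 cells and in 12 of the 16, mostly Flt1 (13 and 7 cells) and Eng (10 and 5), and no cell of the 29 had 3. Emcn reached 4738, Pecam1 1060 and Cdh5 784 in the set with fewer markers, whereas the highest values in the 29 cells were 8.48 for Emcn, 10.7 for Pecam1 and 4.24 for Cdh5. Tek and Esam had no read in any of the 29 cells. For some results, values without cells 8 and 11 are also given.

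Genes were set side by side by the ratio of mean values in cells with 3 or more markers over cells with fewer, as log2(mean + 1), which understates the difference of genes with low values. A gene was counted as past the fold when the ratio was at least 2-fold and the cell with more markers had the higher value in at least 60% of all pairs of cells (ties counted as equal parts), or in at most 40% for a lower gene. The filter kept 7439 genes, those that averaged 10 or more and were seen in 25% or more of the passage 2 cells, with the 12 markers left out. Of these, 508 were higher (6.83%) and 627 were lower (8.43%). The median log2 ratio over these genes was 0.03. Without the endothelial marker cells 8 and 11, 535 genes were higher and 595 lower. These percentages are the background against which each group of genes below is read. Without cells 8 and 11, the list genes Gpx3, C1s1, Timp1, Gas6, Snai1, Itga1, Itga11, Myl9 and Rgs5 were no longer past the fold. Other list genes, such as Mmp2 and Cd55, came past it upward.

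Fgf7, Il6 and Svep1 were among the genes outside the rule that differed widely in size or in the share of cells, and the start of each gene is shown because all 3 encode secreted proteins. They were picked after their values were seen. Fgf7 is a fibroblast growth factor made by mesenchymal cells that acts on epithelial cells, Il6 is the cytokine interleukin 6, and Svep1 is a large secreted cell adhesion protein. The sequences run from 250 bases before to 50 bases after the start in RefSeq (GRCm38.p6), 5′ to 3′ on the gene's strand, at chr2:126034408-126034707 (plus strand) for Fgf7, chr5:30012864-30013163 (plus strand) for Il6 and chr4:58206547-58206846 (minus strand) for Svep1. The Svep1 window is placed on the RefSeq start and lies wholly inside the gene as GENCODE M21 draws it, downstream of the GENCODE start, whereas both starts of Fgf7 and of Il6 agree. Capitals mark matches on either strand to GGGANTTTC (the core of the NF-kappaB motif), TGANTCA (the AP-1 motif), CCAAT and TATAAA.
Fgf7: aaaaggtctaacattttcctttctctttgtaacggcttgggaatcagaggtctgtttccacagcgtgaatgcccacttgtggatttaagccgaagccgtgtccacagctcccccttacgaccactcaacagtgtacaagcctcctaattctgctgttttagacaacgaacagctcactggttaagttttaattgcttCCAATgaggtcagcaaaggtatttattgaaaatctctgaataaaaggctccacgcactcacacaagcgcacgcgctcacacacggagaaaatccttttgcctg
Il6: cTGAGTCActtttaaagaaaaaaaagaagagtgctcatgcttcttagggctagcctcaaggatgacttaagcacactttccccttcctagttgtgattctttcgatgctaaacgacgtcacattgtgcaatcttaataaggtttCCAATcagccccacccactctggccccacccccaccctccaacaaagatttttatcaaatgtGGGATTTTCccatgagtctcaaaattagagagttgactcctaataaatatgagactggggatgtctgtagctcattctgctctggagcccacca
Svep1: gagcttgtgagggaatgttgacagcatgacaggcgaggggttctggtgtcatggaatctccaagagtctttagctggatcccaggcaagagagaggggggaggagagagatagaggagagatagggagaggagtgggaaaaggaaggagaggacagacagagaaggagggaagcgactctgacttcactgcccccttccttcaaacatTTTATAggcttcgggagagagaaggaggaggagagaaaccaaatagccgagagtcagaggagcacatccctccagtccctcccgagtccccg
Over 32851 RefSeq mouse promoters of the same length, 1.11% held the NF-kappaB letters, 7.81% the AP-1 letters, 37.4% CCAAT and 13.6% TATAAA. The Il6 window held the first 3 of these, the Fgf7 window CCAAT and the Svep1 window the TATAAA letters on the opposite strand. No overlap between matches of different motifs was found in these windows. Of the 12 genes with the highest ratios, 10 had a RefSeq promoter, and 1 held the NF-kappaB letters, 1 the AP-1 letters, 4 CCAAT and 0 TATAAA. Of the 12 with the lowest ratios, 10 had one, and 0, 1, 4 and 3 held them in the same order of motifs. A match describes letters in the window and is not a measured binding site.

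Fgf7 (chromosome 2, 126034658 to 126091185, GENCODE M21 on GRCm38) separated the cells more than any other growth factor ligand tested. In cells with 3 or more markers its value was 0 at the lowest, 168 at the median and 1551 at the highest, and 19 of 29 cells were at 10 or more. In cells with fewer markers 15 of 16 cells were below 10, and the single cell above it, cell 36 with 2 markers, had 20.5. No cell with fewer markers reached the median of the other set, although the low ends of both sets overlapped at 0. The mean was 289.9 ± 401 against 1.33 ± 5.11 (SD, n = 29 and 16 cells), a log2 ratio of 6.96, or 8.10 without cell 36, with the higher value in the cell with more markers in 86.9% of pairs. At passage 1, Fgf7 was at 10 in 12 of 16 cells with 3 or more markers and in 1 of 6 cells with fewer, with a log2 ratio of 0.85. That ratio turned on passage 1 cell 21, the only cell with fewer markers at 10, which had 465, and it came to 6.96 without that cell and to -0.15 without the 5 passage 1 cells with endothelial markers.

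Il6 (chromosome 5, 30013114 to 30019981) was on in a smaller part of the 29 cells. Its value was 0 at the lowest, 1.19 at the median and 1016 at the highest in cells with 3 or more markers, and 0, 0 and 16.8 in cells with fewer. It was at 10 in 12 of 29 cells (41.4%, 23.5% to 61.1%) and in 1 of 16 cells (6.25%, 0.158% to 30.2%). With any read counted the numbers were 16 of 29 and 5 of 16, and after thinning 14 of 29 and 2 of 16. The means were 156 ± 297 and 1.28 ± 4.15, a log2 ratio of 6.11 (6.97 without cell 36).

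Svep1 (chromosome 4, 58042442 to 58206859) was the most widespread of the 3. It was at 10 in 26 of 29 cells with 3 or more markers and in 3 of 16 with fewer, with a lowest of 0, a median of 212 and a highest of 736 against 0, 0.328 and 199. The mean was 241 ± 191 against 16 ± 49.7, a log2 ratio of 3.83, or 5.65 without cell 33, which alone held the 199. The cell with more markers had the higher value in 92.9% of pairs. In passage 1 cells Svep1 was at 10 in 11 of 16 cells with 3 or more markers and in 0 of 6 with fewer.

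**Figure D2:**
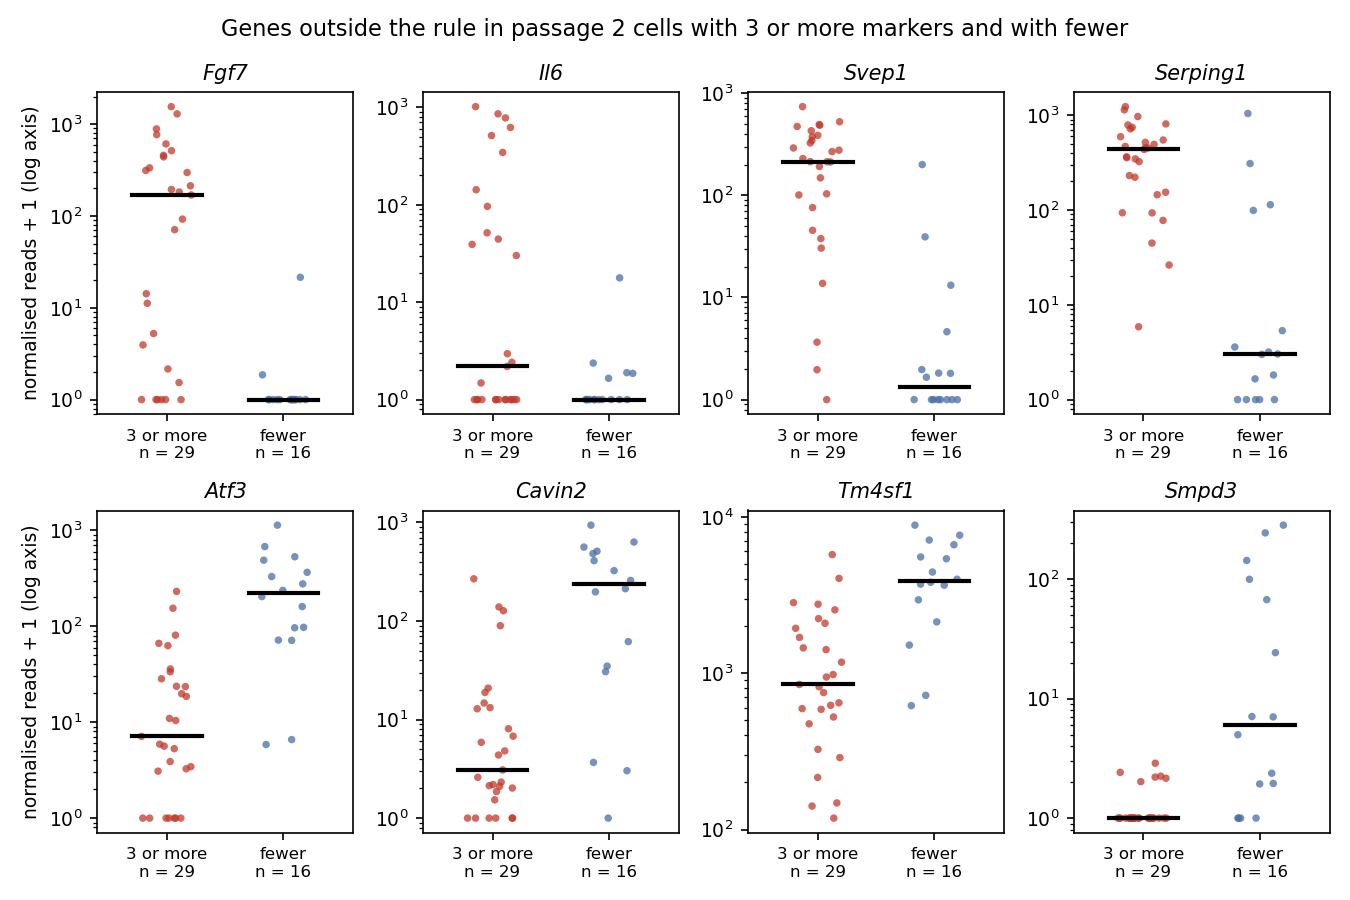
Normalised reads plus 1 (log axis) of 8 genes outside the rule, 1 point per passage 2 cell and a bar at the median, for 29 cells with 3 or more markers (left in each panel) and 16 cells with fewer (right). Fgf7, Il6, Svep1 and Serping1 are higher on the left, where Serping1 is at 10 in 28 of 29 cells, and Atf3, Cavin2, Tm4sf1 and Smpd3 are higher on the right, with points of both sets overlapping in every panel.

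The other genes with the largest ratios were mostly on in 7 to 11 of the 29 cells. The noncoding RNA B830012L14Rik (chromosome 12, 109695586 to 109702587, GENCODE M21) was at 10 in 9 cells with 3 or more markers and in 0 with fewer, with means of 277 ± 527 and 0.205 ± 0.369 and a median of 0.94 in the 29 cells. It gave the highest log2 ratio, 7.85, in 72.4% of pairs, and at passage 1 it was at 10 in 10 of 16 cells and 0 of 6. Mfap2, a microfibril protein of elastic fibres, had means of 63.9 and 0.518 (log2 ratio 5.42). Pcsk6, a secreted proprotein convertase, was more common, at 10 in 22 of 29 cells and 1 of 16, with means of 82.8 and 2.26 and a log2 ratio of 4.68 (5.45 without cell 37). Naalad2 had a log2 ratio of 5.16 (4.48 without cell 10 and 5.78 without cell 33), Lingo1 of 5.01, Sned1 of 4.86 (4.03 without cell 40), Rnf170 of 4.63 and Rce1 of 4.61. Phf8, a histone demethylase, had 4.56 (3.22 without cell 40) and Btbd3 had 4.42 (3.27 without cell 14).

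Fibroblast genes outside the rule were higher in the 29 cells as a group, with 9 of 19 genes tested (of 26 listed) past the fold upward, 0 downward and a median log2 ratio of 1.20, beside 6.83%, 8.43% and 0.03 over all genes. Prelp, a leucine-rich matrix proteoglycan, had a lowest of 0, a median of 297 and a highest of 1743 in cells with 3 or more markers, against 0, 5.12 and 381 in cells with fewer, a log2 ratio of 2.21. Pcolce, which enhances the trimming of procollagen, had 39.5, 536 and 1576 against 0, 117 and 805 (log2 ratio 1.70, higher in 85.3% of pairs). It was above 10 in all 29 cells and in 11 of 16. Mfap5, a microfibril glycoprotein, had means of 558 ± 432 and 162 ± 194 (log2 ratio 1.78).

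Thy1, a surface glycoprotein used to recognise fibroblasts, was at 10 in 16 of 29 cells and in 3 of 16, with means of 42.6 and 6.02 (log2 ratio 2.64, or 3.29 without cell 28). Olfml3 had a log2 ratio of 2.17 that came to 6.27 without cell 33 and 1.503 without cell 31, Islr 1.91 and 3.69 without cell 18, Cd248 1.58 and 3.07 without cell 36, and Cygb 1.20 and 2.44 without cell 18. Gpx3 had 2.57 and 1.31 without cell 15, a member whose value of 5558 was the highest, and 3.18 and 3.35 without cells 33 and 44 in turn. Cells 18, 33 and 36 were the 3 cells with fewer markers in which Serpinf1 was at 10, and each had exactly 2 markers. At passage 1, 13 of 17 genes of the list were past the fold upward (27.1% of all genes tested there), 1 was downward (7.01% of all genes; Gsn, log2 ratio -2.11, or -0.83 without passage 1 cell 21), and the median was 2.67.

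Of 15 genes of the complement pathway and of protease inhibitors tested (of 18 listed), 5 were past the fold upward and 1 downward, with a median log2 ratio of 0.74. Serping1, the C1 inhibitor, was at 10 in 28 of 29 cells and in 4 of 16, with 4.87, 434.5 and 1231 as lowest, median and highest against 0, 2.01 and 1042. Its means were 442 ± 330.3 and 98.5 ± 264, a log2 ratio of 2.16, or 3.60 without cell 33. C1s1, a protease that Serping1 inhibits, was at 10 in 24 of 29 and 4 of 16 cells, with a log2 ratio of 1.06 that came to 3.71 without cell 33 but lay under the fold (0.81 to 0.98) without any 1 of 16 other cells, and C1ra had 1.58 (3.55 without cell 33). Serpina3n, a serine protease inhibitor, was at 10 in 16 and 2 cells, with means of 267 and 30.2 and a log2 ratio of 3.10, or 6.23 without cell 45. Timp1, an inhibitor of metalloproteinases, was at 10 in all 29 cells and in 14 of 16 (means 395 and 179, log2 ratio 1.14, or 0.97 without cell 20). Serpine2, which inhibits thrombin, was the lower one, with means of 26.2 and 122 (log2 ratio -2.18).

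Of 13 chemokine and inflammatory genes tested (of 18 listed), 4 were past the fold upward and 0 downward, with a list median of 0.46. Besides Il6 these were Ccl2, Ccl7 and Icam1. Ccl2, a chemokine that attracts monocytes, was at 10 in 17 of 29 cells and 3 of 16, with a median of 189.9 and a highest of 2986 against 0.486 and 1055. Its log2 ratio was 2.57, or 4.51 without cell 33. Ccl7 had 1.80 (6.59 without cell 33) and was at 10 in only 7 of the 29 cells. Icam1, an adhesion receptor for leukocytes, had 1.10, 4.23 without the endothelial marker cell 11, and 0.76 to 0.84, under the fold, without cell 2, 14, 32 or 42. Il6st, the signalling subunit of the interleukin 6 receptor, was at 10 in 28 of 29 cells and 14 of 16 (means 352 and 152, log2 ratio 1.20, or 1.61 without cell 9). It was the 1 growth factor receptor gene of 20 tested that was past the fold upward, and 0 were downward.

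Fibrillar collagens did not follow the markers at passage 2. Of 22 collagen and processing genes tested (of 24 listed), 3 were past the fold upward (Col6a1, Col16a1 and Pcolce) and 0 downward, with a median of 0.33. Col1a1 had means of 573 ± 462 in cells with 3 or more markers and 506 ± 329 in cells with fewer, with medians of 444 and 523. Col1a2 had means of 1366 ± 853 and 1135 ± 899.6, and Col3a1 of 421 ± 437 and 589 ± 676 (log2 ratio -0.48). Col6a1, a microfibrillar collagen, had means of 203 ± 185 and 59.02 ± 68.5 (log2 ratio 1.76). Col16a1 was at 10 in only 5 and 2 cells, and its log2 ratio of 1.47 came to 0.55 without cell 15, 2.15 without cell 36 and 2.12 without cell 44. At passage 1 all 3 fibrillar genes were past the fold upward, with log2 ratios of 1.60 for Col1a1, 2.33 for Col1a2 and 3.28 for Col3a1. Without passage 1 cell 17 Col1a1 had 2.78, and without the 5 passage 1 cells with endothelial markers it had 0.75, while Col3a1 had 5.08 without passage 1 cell 12.

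Among matrix glycoproteins and elastic fibre genes, 5 of 23 tested (of 24 listed) were past the fold upward and 0 downward, with a median of 0.31. Besides Mfap2 these were Thbs2, Ccn3, Ltbp2 and Fmod. Thbs2, a thrombospondin, was at 10 in 19 and 3 cells (means 294 and 58.1, log2 ratio 2.32, or 4.84 without cell 33). Fmod, the proteoglycan fibromodulin, was at 10 in 22 and 5 cells (means 216 and 34.8, log2 ratio 2.60, or 3.49 without cell 33). Ccn3 had 2.05, and Ltbp2, which binds fibrillin, 2.06 (2.87 without cell 11). Fn1 (fibronectin), the most abundant of them, had means of 3989.7 ± 1802 and 5287 ± 2786 (log2 ratio -0.41) and lay in the opposite direction in 66.6% of pairs. Spp1 (osteopontin) was at 10 in 5 of 29 cells and 3 of 16, with a log2 ratio of -2.21 that became 2.09 without cell 36, which alone held 1721. In passage 1 cells, Spp1 was at 10 in 14 of 16 cells with 3 or more markers and in 1 of 6 with fewer.

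Of 17 protease genes tested (of 23 listed), 4 were past the fold upward and 1 downward, with a median of 0.51. Adamts1 (means 468 and 160), Mmp14, the membrane-bound metalloproteinase (128 and 52.5), Ctsk, the cathepsin that degrades collagen (153 and 45.4), and Mmp19 (30.2 and 4.07) had log2 ratios of 1.54, 1.27, 1.73 and 2.62. Without 1 cell Mmp14 came to 1.87 (cell 36) and Mmp19 to 4.08 (cell 41). Pcsk5 lay in the other direction from Pcsk6, with means of 279 and 934 and a log2 ratio of -1.74.

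**Figure D3:**
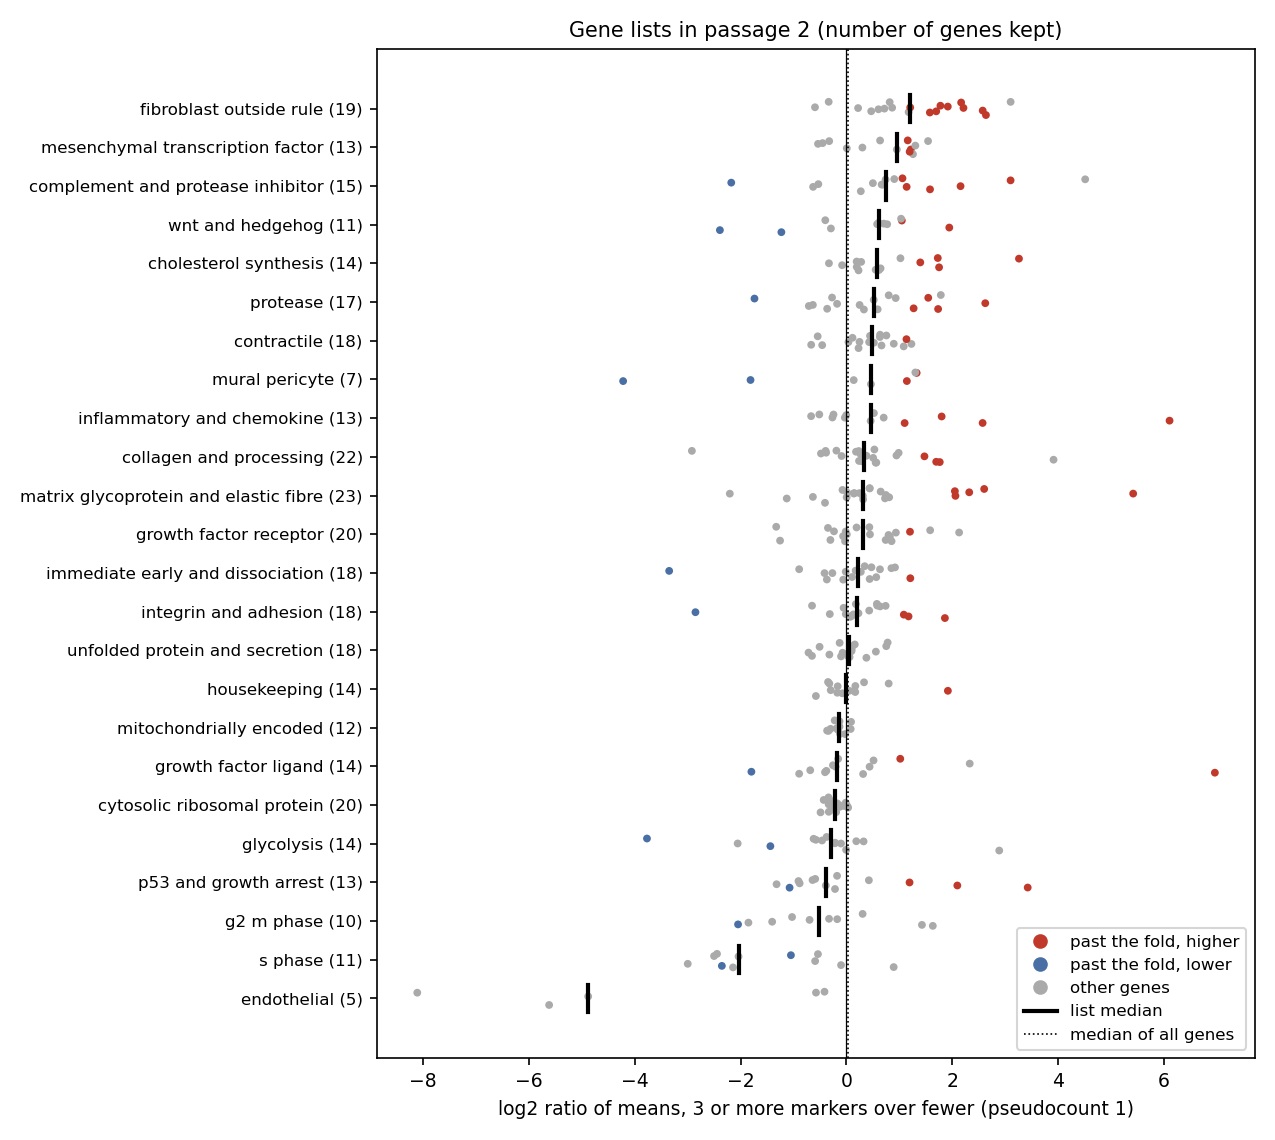
Log2 ratios of mean values (3 or more markers over fewer, pseudocount 1) of the genes tested in each list drawn (5 or more genes), 1 point per gene and a black bar at the list median, with the median of all genes dotted. The fibroblast genes outside the rule stand highest with a median of 1.20, and the endothelial list, which rests on cells 8 and 11, lowest with -4.88. Without those cells only 2 endothelial genes were kept, with a median of 0.67.

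Growth factor ligands, Wnt and hedgehog genes and transcription factors lay in both directions. Of 14 ligands tested (of 25 listed), Fgf7 and Gas6 were past the fold upward and Hbegf downward, with a median of -0.18. Gas6, the ligand of the Axl receptor family, was at 10 in 28 and 16 cells (means 543 and 268, log2 ratio 1.02), and lay under the fold (0.93 to 0.99) without any 1 of 17 cells. Hbegf, a ligand of the EGF receptor, had a median of 45.1 in cells with 3 or more markers and 141 in cells with fewer (means 78.5 and 275, log2 ratio -1.80). It was also past the fold downward at passage 1 (log2 ratio -1.38, but 0.06 without passage 1 cell 14, -2.13 without passage 1 cell 3, and -0.27 without all 5 passage 1 cells that carried endothelial markers). Of 11 Wnt and hedgehog genes tested (of 26 listed), Dkk3 and Lrp6 were upward and Sfrp2 and Smo downward, with a median of 0.61. Sfrp2, a secreted Wnt antagonist, had a lowest of 4.08, a median of 149 and a highest of 5421 against 22.02, 2798 and 11980.5, with means of 646 and 3393 (log2 ratio -2.39). Dkk3 had means of 78.5 and 19.7 (log2 ratio 1.94, or 2.96 without cell 18), Lrp6 had 1.05 and lay under the fold (0.78 to 0.99) without any 1 of 13 cells, and Smo's -1.23 became 0.46 without cell 18. Of 13 mesenchymal transcription factors tested (of 24 listed), 3 were upward and 0 downward. Snai1 had a log2 ratio of 1.16 (4.48 without cell 36, but 0.75 to 0.99 without cell 1, 24 or 39), Zeb1 1.22 (1.88 without cell 36 and 0.78 without cell 15) and Ebf1 1.19 (2.07 without cell 33 and 0.95 without cell 42).

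Contractile genes were not lower in the cells with many fibroblast markers at passage 2. Of 18 contractile genes tested (of 22 listed), 1 was past the fold upward, 0 were downward, and the median log2 ratio was 0.48, or 0.43 without the endothelial marker cells. Acta2 had a lowest of 153, a median of 2931 and a highest of 17576 in cells with 3 or more markers, against 350.2, 1658 and 7679 in cells with fewer. Its means were 4744 ± 4379 and 2552 ± 2363 (log2 ratio 0.89, higher in 67.2% of pairs), so the sets overlapped over most of their range. Tagln had means of 2072 ± 1556 and 1334 ± 1277 and Cald1 (caldesmon) of 2996 ± 1563 and 1934 ± 1697. Myl9, a regulatory myosin light chain, was the gene past the fold, with means of 642 ± 653 and 292 ± 389.7 and a log2 ratio of 1.13, which was under the fold (0.94) without cells 8 and 11, and likewise 0.94 without cell 24. Myh11, the smooth muscle myosin heavy chain and the most specific gene of the list, was at 10 in 11 of 29 cells (37.9%, 20.7% to 57.7%) and 7 of 16 (43.8%, 19.8% to 70.1%), with medians of 1.10 and 0.996. Cnn1 was at 10 in 6 and 2 cells. How reads shared between actin genes were counted is not known, so the level of Acta2 is uncertain.

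As a list, contractile genes lay the other way round at passage 1, although not every gene did. At passage 2, 15 of the 18 lay above 0 and 3 below, and at passage 1, 4 of 16 lay above 0 and 12 below. There, 1 of 16 contractile genes tested was past the fold upward and 6 downward, with a median of -0.97 over the list. Acta2 had means of 531 ± 784 in cells with 3 or more markers and 1603 ± 1849 in cells with fewer (SD, n = 16 and 6 cells, log2 ratio -1.59), and Myl9 of 64.5 and 236. Myh11 was at 10 in 0 of 16 and 2 of 6 cells, so its share was lower with 3 or more markers at both passages. The 6 cells with fewer markers at passage 1 included 3 with an endothelial signature, and without all 5 such passage 1 cells the log2 ratio of Acta2 was -2.36. Without passage 1 cell 9, which had fewer markers, the log2 ratios were -0.85 for Acta2 and -0.72 for Myl9, both under the fold. The difference between passages was not tested, since each passage is 1 sample.

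**Figure D4:**
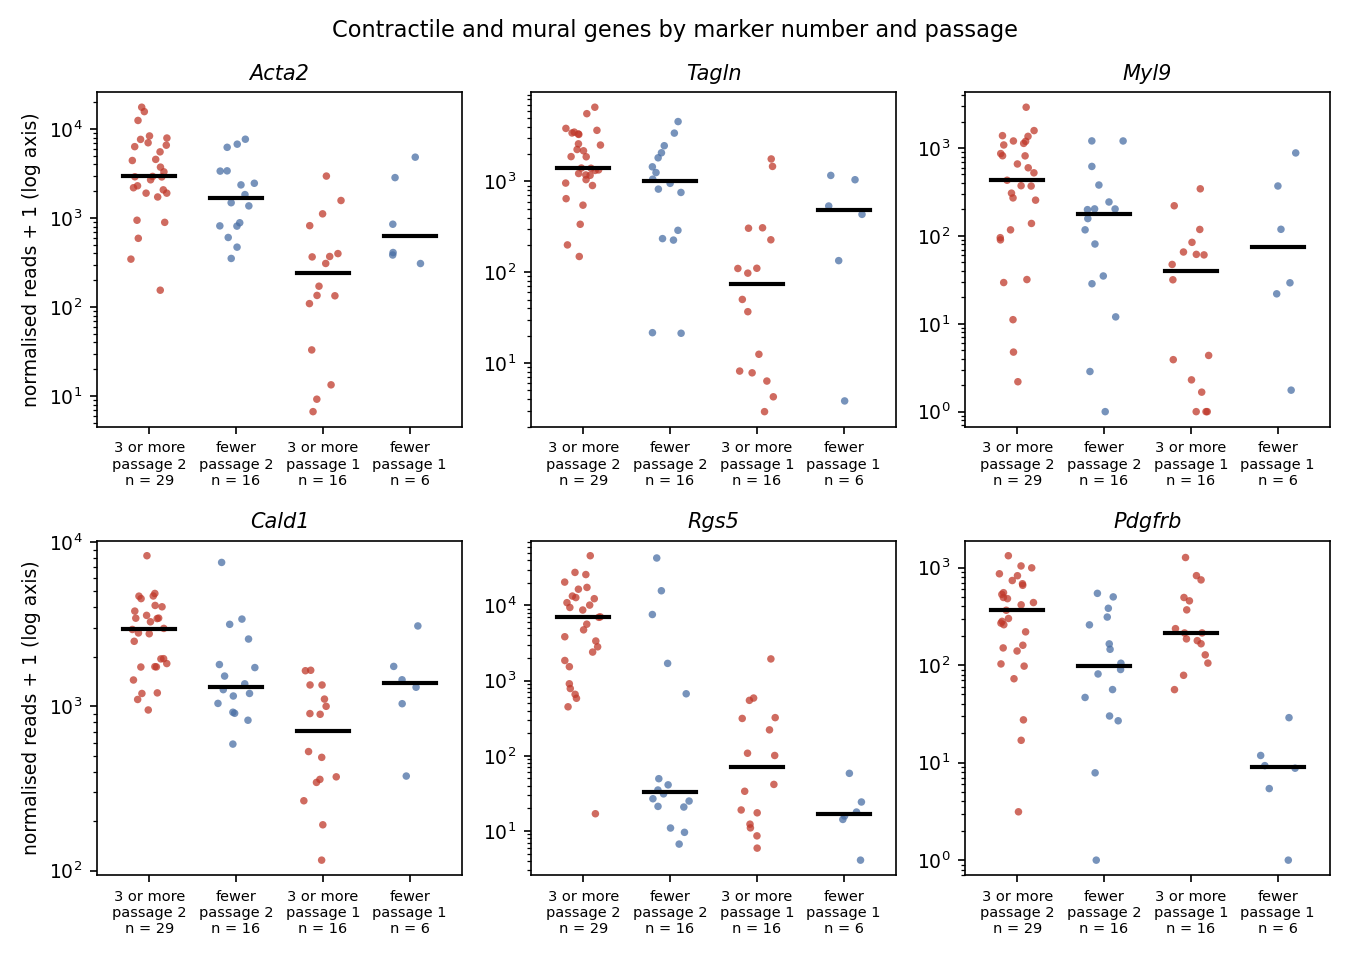
Normalised reads plus 1 (log axis) of 4 contractile genes (Acta2, Tagln, Myl9, Cald1) and 2 mural genes (Rgs5, Pdgfrb), 1 point per cell and a bar at the median, for cells with 3 or more markers and with fewer at passage 2 (29 and 16 cells) and then at passage 1 (16 and 6 cells). Medians of the contractile genes are higher with 3 or more markers at passage 2 and lower at passage 1, while Rgs5 and Pdgfrb are higher with 3 or more markers in both.

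The contractile sum did not climb with the number of markers. Its median was 6292 over the 16 cells with 0 to 2 markers, 13503 over the 15 cells with 3 or 4, and 9238 over the 14 cells with 5 to 8. The 7 cells with exactly 3 markers stood out, with a lowest of 9748, a median of 20367 and a highest of 35014. Within the 29 cells, the Spearman correlation of the contractile sum with the number of markers was -0.25, and over all 45 cells it was 0.21. Both come from values of the same libraries. When 4 or more markers were asked for, the contractile median of log2 ratios was -0.33, with the 7 cells at 3 markers moved into the other set. With those 7 cells left out, it was 0.26. The fibroblast genes outside the rule had a median sum of 3506, 5851 and 6304 in the 3 classes, and the complement and protease inhibitor genes 3718, 5819 and 7508. Within the 29 cells, the correlations of these sums with the number of markers were 0.24 and 0.53, and over all 45 cells 0.50 and 0.68. The mean fibroblast sum was 6687 over cells with 3 or 4 markers and 6456 over cells with 5 to 8. Its highest value, 21046, was in a cell with 3 markers.

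**Figure D5:**
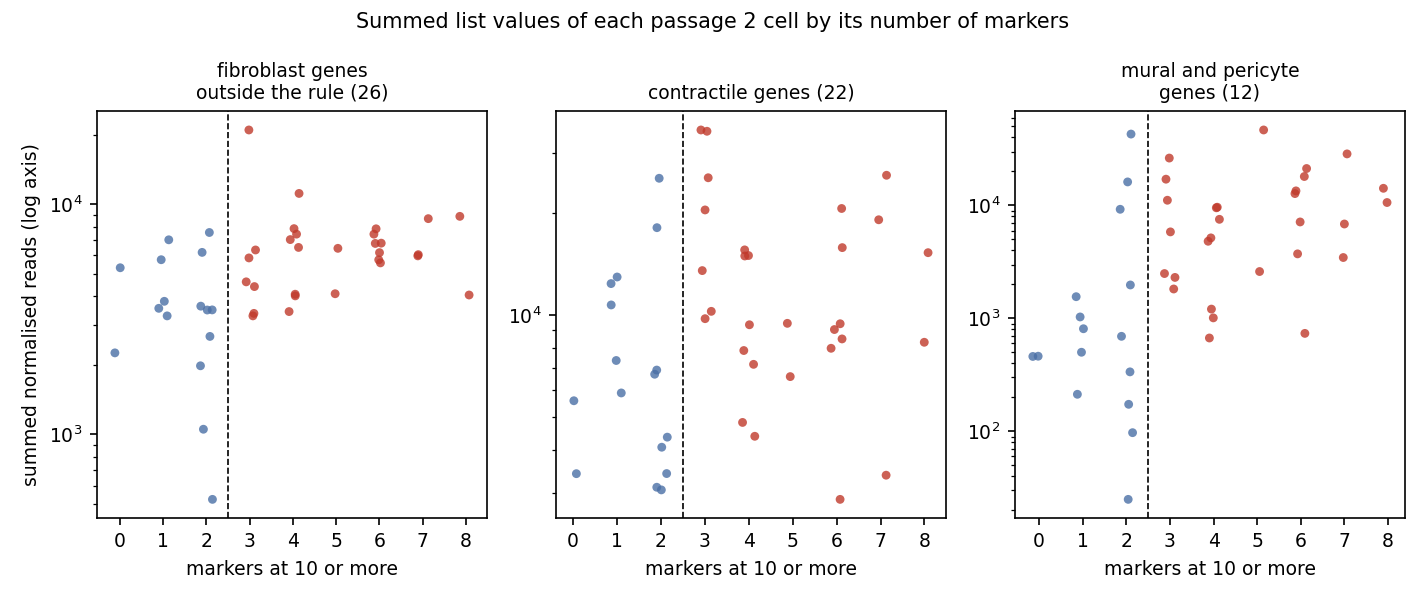
Summed normalised reads (log axis) of the 26 fibroblast genes outside the rule, the 22 contractile genes and the 12 mural and pericyte genes in each passage 2 cell, against its number of markers at 10 or more, with the rule's edge dashed. Contractile sums are highest in the cells with 3 markers (median 20367), and mural sums under 500 occur only left of the edge.

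Rgs5, which dampens G protein signalling in pericytes and smooth muscle, was the most abundant gene that differed. It had a lowest of 15.97, a median of 6941 and a highest of 45752 in cells with 3 or more markers, against 5.70, 32.1 and 42669 in cells with fewer. The means were 9443 ± 10315 and 4282 ± 11054, a log2 ratio of 1.14, or 2.45 without cell 18 and 0.93, under the fold, without cell 17, in 81.5% of pairs. Of the 16 cells, only 18, 33 and 36 reached the median of the 29. Over the 508 higher genes, cell 33 held the highest value of the 16 for 57 genes (11.2%) and cell 18 for 53 (10.4%). Without the endothelial marker cells the log2 ratio was 0.95. Pdgfrb, the PDGF receptor of mural cells, had means of 430.5 ± 344 and 171 ± 176 (log2 ratio 1.33), and at passage 1 357 and 9.88. Kcnj8 and Abcc9, subunits of the vascular ATP-sensitive potassium channel, were the 2 lower genes of the 7 mural genes tested (of 12 listed). Abcc9 was at 10 in 3 of 29 cells and 6 of 16 (log2 ratio -4.22, or -3.36 without cell 27 and -4.81 without cell 42), and Kcnj8 in 1 and 3 (log2 ratio -1.81, or -4.64 without cell 35 and -0.92, under the fold, without cell 34).

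Genes lower in the 29 cells included several that were silent or nearly so there. Smpd3, a sphingomyelinase, had a highest value of 1.88 in the 29 cells and was at 10 in 0 of them, against 6 of 16 cells with fewer markers and a highest of 282 (means 0.273 and 54.6, log2 ratio -5.45). It was also past the fold downward at passage 1 (log2 ratio -2.70). Fez1 had -5.41 (-4.33 without cell 8), Akap5, an anchoring protein of protein kinase A, -5.28 (-4.18 without cell 16), and Ahr, the aryl hydrocarbon receptor, -4.77 (-3.93 without cell 27). Dsp (desmoplakin, a desmosome protein) was at 10 in 2 of 29 and 6 of 16 cells, with -5.12 (-4.39 without cell 37 and -5.76 without cell 4). Aldh1a7 had -5.00 (-7.12 without cell 13), Dhrs9 -4.41, Pald1 -4.74 (-3.20 without cell 44), Zfp770 -4.63 (-3.21 without cell 44 and -5.44 without cell 10) and Bcar3 -4.35 (-2.66 without cell 37). Ralgapa2 had -4.76 (-3.42 without cell 11) and was past the fold downward at passage 1 too (-3.76, or -5.32 without passage 1 cell 16). Ppp1r16b had -4.98, which came to -2.72 without cell 8 and to -0.71 without both endothelial marker cells, 8 and 11.

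The number of markers was also compared with each gene over the 45 cells, as a Spearman correlation across cells that share libraries and depth. Among the highest values outside the rule were those of Serping1 (0.67), C1s1 (0.66), Myo10 (0.65), Cst3 (0.65), Svep1 (0.63), Fabp5 (0.63), B2m (0.62), Bicc1 (0.61) and Pcolce (0.59). Myo10, an unconventional myosin of filopodia, had a lowest of 122, a median of 1105 and a highest of 2699 against 19.2, 193 and 1516 (log2 ratio 1.69). Cst3 (cystatin C, a cathepsin inhibitor) and B2m (the light chain of MHC class I) were at 10 in all 45 cells, and their means of 3385 and 1810 and of 1139.9 and 656 gave less than a 2-fold difference. Fabp5, a fatty acid binding protein, was at 10 in 23 and 3 cells (log2 ratio 3.27, or 4.92 without cell 33), and Bicc1, an RNA-binding protein, in 22 and 5 (log2 ratio 1.76, or 3.08 without cell 18).

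The lowest correlations were those of Atf3 (-0.61), Nhsl1 (-0.59), Hars (-0.58), Cavin2 (-0.58) and Tm4sf1 (-0.58). Atf3, a stress-induced transcription factor, had a lowest of 0, a median of 6.12 and a highest of 230.1 in the 29 cells, against 4.86, 219 and 1133 in the 16 (means 28.1 and 296, log2 ratio -3.35). The cell with more markers had the higher value in only 9.3% of pairs. Cavin2, a caveolar coat protein, was at 10 in 9 and 13 cells (means 25.2 and 291, log2 ratio -3.48) and was past the fold downward at passage 1 as well (-3.14). Tm4sf1, a surface protein of the tetraspanin-like family, was at 10 in all 45 cells, with medians of 845 and 3897 (log2 ratio -1.68). Hars, histidyl-tRNA synthetase, was at 10 in 9 and 13 cells (log2 ratio -3.29, or -4.26 without cell 22), and Nhsl1 in 2 and 8 (log2 ratio -2.37, or -3.99 without cell 43).

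Stress, growth and metabolic lists lay on both sides of 0. Of 18 immediate early genes tested (of 21 listed), Egr1 was upward (means 2967 ± 1989 and 1285 ± 795, log2 ratio 1.21) and Atf3 downward, with a list median of 0.22. Fos, another immediate early factor, had means of 918 and 486 (log2 ratio 0.92). Cells with Mki67 or Top2a at 10, genes of proliferating cells, were 6 of 29 (20.7%, 7.99% to 39.7%) and 4 of 16 (25%, 7.27% to 52.4%). Among genes of DNA synthesis 0 of 11 tested were upward and 2 downward (Tyms, with a log2 ratio of -1.05, or -1.79 without cell 35 and -0.92 to -0.41 without cell 8, 9 or 36, and Slbp, with -2.35). Of these 11, 10 lay below 0, and the list median was -2.04, or -0.82 without cell 8, -1.41 without cell 36 and -0.92 without both endothelial marker cells. With 2 or more markers asked for, the median was 0.016. Among mitotic genes 0 of 10 tested were upward and 1 downward (Ube2c, whose log2 ratio of -2.05 became 0.68 without cell 9 and -4.27 without cell 15). Of 14 cholesterol synthesis genes tested, 4 were upward, beside 6.83% of all genes, and 0 downward: Mvk with 1.73 (2.64 without cell 27), Idi1 with 1.39 (2.00 without cell 16 and 0.94 without cell 29), Fdps with 1.75 (2.56 without cell 8) and Lss with 3.26 (2.03 without cell 32 and 4.25 without cell 16). Of 13 p53 target and growth arrest genes tested (of 17 listed), 3 were upward and 1 downward. The list median was -0.39, and 9 of the 13 lay below 0. The binding proteins of insulin-like growth factors Igfbp4, Igfbp5 and Igfbp7 were the upward ones, with log2 ratios of 2.09 (3.05 without cell 33), 3.42 (6.84 without cell 33) and 1.19. Phlda3 was downward with -1.08, but lay under the fold (-0.94 to -0.63) without cell 9, 18 or 34. Of 20 ribosomal protein genes, 18 lay below 0, with a median of -0.21 and 0 past the fold. Of 14 glycolysis genes tested 0 were upward and 2 downward (Gpi1 with a log2 ratio of -1.44 and Pfkl with -3.77, or -2.57 without cell 27). Of 18 genes of protein folding and secretion 0 were past the fold in either direction.

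Cadherin and integrin genes gave 3 upward and 1 downward of 18 tested (of 22 listed). Cdh11, a cadherin of mesenchymal cells, had means of 328 and 89.7 (log2 ratio 1.86, or 4.44 without cell 36), and at passage 1 it was at 10 in 15 of 16 cells and 1 of 6. Itga11, a collagen receptor subunit, had 1.17 (3.80 without cell 36, but 0.84 and 0.87 without cells 20 and 32 in turn) and Itga1 1.08 (1.90 without cell 33, but 0.851 to 0.997, under the fold, without any 1 of 12 other cells). Itga3, a laminin receptor subunit, was at 10 in 1 of 29 cells and 8 of 16 (means 3.59 and 32.2, log2 ratio -2.85, or -4.18 without cell 4), and at passage 1 in 0 of 16 and 5 of 6.

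Passage 1 cells, which played no part in choosing the 29, were split by the same rule. Of 22 cells, 16 had 3 or more markers, and these had 2124 genes higher (27.1%) and 550 lower (7.01%) of 7841 tested, with a median log2 ratio of 0.25. The gene counts per cell differed there (median 8862 with 3 or more markers and 7598 with fewer). Of the 508 genes higher at passage 2, 441 were tested at passage 1 and 179 of them were higher there too (40.6%, which is 8.43% of the 2124), while 25.7% of all 6607 genes tested at both passages were. Of the 627 lower genes, 560 were tested and 72 were lower there (12.9%, and 13.1% of the 550), beside 6.77% of all genes tested at both. In the opposite direction, 140 of the 560 were higher at passage 1, beside the same 25.7% of all genes. Of the 441, 21 were lower at passage 1, beside 6.77%. The passages share no cell, but the sets at both were chosen by the same 12 markers.

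As whole profiles the 29 cells overlapped with the other 16, with only small differences between medians. The Spearman correlation between cells over all genes tested had a median of 0.409 within the 29 cells, 0.400 within the 16 and 0.393 between the sets. The ranges were 0.311 to 0.472, 0.295 to 0.591 and 0.290 to 0.472 in the same order.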

How the data were processed

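RNA was sequenced from 22 passage 1 and 45 passage 2 cells, each a library of its own. The authors used BWA, SAMtools, HTSeq and DESeq with GRCm38, per the submitters' processing notes, which give no versions. The deposited signal values are reads per gene after the authors' division by a size factor of the cell. Whole reads were recovered from the smallest step of each column (within 0.001 for 100% of 509576 values). The table held 39179 rows, of which 37607 had a GENCODE M21 symbol. Strand and the treatment of reads that map to several genes were not given in the sources used here, so genes with close copies or antisense partners are uncertain. Passage 2 libraries held 548419 to 1509589 reads.

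The cells, the 12 markers and the 34 gene lists were chosen with earlier results of these data known. Kept genes averaged 10 or more and were seen in 25% or more of the cells, and were compared by log2(mean + 1) and by the percentage of cell pairs. No count test was run, since no animal or culture is named and the cells of a passage make 1 sample. An endothelial marker cell had at least 3 of 12 endothelial markers at 10. No doublet caller was run, and doublets were not removed.

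Named were the 12 highest and 12 lowest ratios of genes seen in 50% or more of the higher set's cells, where no left-out cell changed the direction. Also named were the 2 most abundant genes and the highest and lowest ratio of each list, a set of contractile and matrix genes, and the 10 highest and 5 lowest correlations with the marker number. Other list members past the fold were named after their values were seen. A few named genes and lists are not reported here. The calculation was tested on simulated data. Alternatives changed the rule, the filters, the pseudocount, the scaling (same total reads, TMM from edgeR 4.0.16 in R 4.3.3), the summary over cells and the depth (thinning to 500000 reads), and left out cells. The alternatives of passage 1 without endothelial marker cells and of passage 2 without the cells with exactly 3 markers were chosen after the data were examined. Python 3.11.15 was used with scipy 1.17.1, numpy 2.4.6, pandas 2.3.3 and matplotlib 3.10.9.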

Additional observations from a re-analysis of the deposited data

How the results depend on the processing

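No paired analysis was possible because the labels give no replicate numbers that could pair cells. Asking for 2 or more markers gave 912 genes higher and 630 lower. The median log2 ratio was then 1.83 for the fibroblast genes outside the rule and 1.56 for the complement genes. Stricter rules gave lower fibroblast medians, 0.80 with 4 or more markers and 0.69 with 5 or more. The complement medians were 0.85 and 0.59, and the contractile medians -0.33 and -0.05. Leaving out the 7 cells with exactly 3 markers gave a contractile median of 0.26, with 604 genes higher and 691 lower. Counting any read as a marker put all 45 passage 2 cells in the set. A mean of at least 50 left 253 genes higher (8.02%) and 192 lower (6.09%) of 3153 tested. No filter beyond a read in 1 cell gave 648 higher (3.52%) and 1003 lower (5.45%) of 18395 tested. Without cells with Mki67 or Top2a at 10, 757 were higher and 598 lower. Which direction held more genes thus depended on the setting. Medians over cells gave 1055 lower and means of log2 values 1061. At passage 1, 3441 genes were higher without the endothelial marker cells, which left 14 cells against 3. Scaling to the same total reads gave 478 higher and 687 lower, and TMM 482 and 664. Leaving out 1 cell gave 495 to 566 genes higher and 609 to 696 lower at passage 2, and 1993 to 2550 and 488 to 772 at passage 1, with list medians of 1.12 to 1.71 (fibroblast genes), 0.39 to 0.78 (contractile) and 0.68 to 0.98 (complement).

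Ratios of single genes depended on the setting. Of 176 named genes recomputed, 140 had a ratio that moved by more than 1.5 times in at least 1 setting other than leaving out 1 cell. With medians over cells 111 moved, with means of log2 values 88, and with 5 or more markers 87. Scaling to the same total reads and thinning moved 0. Some single genes past the fold also changed direction. With 2 or more markers Ppp1r16b had a log2 ratio of 3.04, Tyms 0.016, Ndufv1, a respiratory chain gene at -2.00 with 3 or more, 0.48 and Smo 0.39. With 4 or more, Btbd3 had -1.39, Myl9 -0.44, Gpx3 -0.75, Col16a1 -0.51, Zeb1 -0.49 and Idi1 -0.55. With 5 or more, Sned1 had -0.87, Btbd3 -1.47, Gpx3 -0.15, Islr -0.35, Ltbp2 -0.18, Itga11 -0.44 and Smo 0.044. Without cells with Mki67 or Top2a at 10, Lss had -0.41 and Itga11 -0.029, and without the 25% of cells with the fewest genes Smo had 0.66. Leaving out 1 cell gave Ube2c values of -4.27 to 0.68 and Smo values of -1.73 to 0.46. The causes were not tested. Values of a few reads per cell limit single genes at this depth.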
